A study of Anopheles arabiensis with 20 samples.

Results

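RNA was sequenced in 20 libraries of *Anopheles arabiensis*, a malaria mosquito, and 176 genes had their highest level, by a set margin, in MOZ, a laboratory strain from Mozambique. They were chosen by their measured levels: the mean over the 4 MOZ libraries had to be at least 1 CPM and at least 2.5 times the highest of the other 4 group means. CPM is the count per 1000000 counts, here of all counts on the IDs that start with AARA, and the rule took 176 of 13830 such IDs (1.27%). The 37 remaining IDs of the table are mitochondrial and were left out of the CPM totals. Since the MOZ level selected the genes, MOZ against any other group is given as a description, with no test, and tests are given only between groups without MOZ.

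Every library came from a pool of 10 whole adult females that had not fed on blood and were 3 to 5 days old, and each group has 4 biological replicates. The Ethiopian populations Asendabo (ASN), Chewaka (CHW) and Tolay (TOL) were reared to adults from larvae taken in the field, and the labels call them resistant to deltamethrin, a pyrethroid, and to DDT. SEK (Sekoru, from Ethiopia) and MOZ are kept in the laboratory and described as susceptible in the labels, and both were reared in a way similar to the field populations. The labels name no insecticide treatment of the sampled females and no engineered allele in any group. MOZ is 1 strain, so origin in Mozambique, laboratory keeping and descent of this strain cannot be told apart. All MOZ and SEK libraries and CHW replicates 3 and 4 were in the second sequencing run, and the first run held the ASN libraries, the TOL libraries and CHW replicates 1 and 2.

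*An. arabiensis* belongs to the *Anopheles gambiae* complex, a group of sibling mosquito species that includes major carriers of malaria in Africa. Laboratory strains of mosquitoes are founded from a limited number of insects and are then bred for many generations without immigration, so that strains differ genetically from each other and from field populations. Steady transcript levels in whole females combine all tissues, from ovary and fat body to midgut and head. In such pools more cells of a type and more RNA per cell cannot be told apart. The table carries IDs only, and 0 of the 13830 AARA IDs matched the RefSeq gene table used here, so the genes are given by ID with no name, role, position or sequence, and no defining marker of a tissue could be checked.

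The word only does not hold for these genes in the strict sense. Of the 176 members, 0 were without counts in all 16 other libraries, and the fewest counts there were 11, so each was detected outside MOZ. The highest other group mean was under 0.5 CPM for 36 members and under 1 CPM for 72. In 157 members every MOZ library lay above every other library, and in 19 members MOZ and other libraries overlapped. Such a separation was found in 10.4% of the 10376 AARA genes with a MOZ mean of at least 1 CPM, and nothing is read from the difference because the rule selected on the same contrast. In a fit of all 20 libraries 162 of the 167 members that passed its filter on low counts were called higher in MOZ than in each of the other 4 groups, where 2.68% of 11018 genes were, again by the contrast that selected them.

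**Figure D1:**
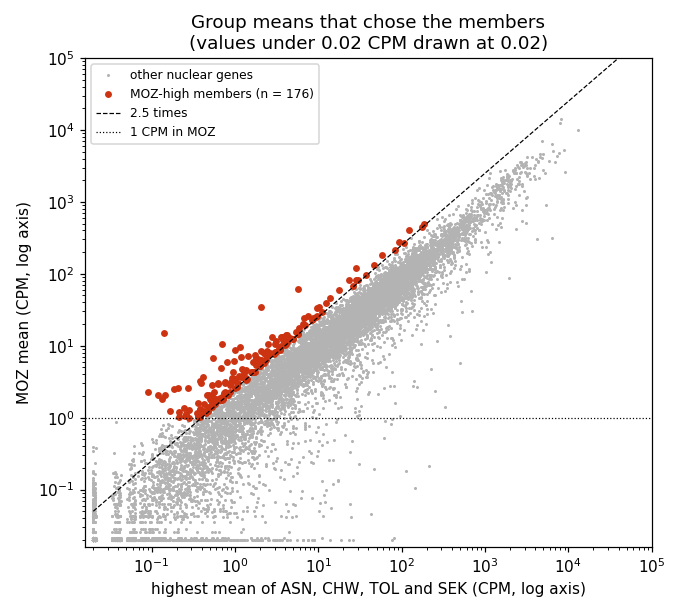
Each point is 1 AARA gene, with the highest of the ASN, CHW, TOL and SEK means on the x axis and the MOZ mean on the y axis, both in CPM on log axes. The 176 members (coloured) lie above the dashed line at 2.5 times and above the dotted line at 1 CPM, most of them close to the dashed line, and the other genes are grey.

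As a sum, the members took 0.426%, 0.512%, 0.363% and 0.408% of the AARA counts in MOZ replicates 1 to 4. The mean was 0.428% ± 0.0624 (SD, n = 4) in MOZ, 0.127% ± 0.0119 (SD, n = 4) in CHW, 0.123% ± 0.0132 (SD, n = 4) in SEK, 0.108% ± 0.00696 (SD, n = 4) in TOL and 0.103% ± 0.00732 (SD, n = 4) in ASN. The highest library outside MOZ stood at 0.142% (CHW replicate 4), well below the lowest MOZ library. The same rule with another group in the place of MOZ took 106 genes for SEK, 17 for ASN, 15 for TOL and 7 for CHW. By these counts both laboratory strains had more genes of this kind than any field population, and MOZ the most. Each field population was measured against the other field populations, while each laboratory strain had a single other laboratory strain beside it. The part of this make-up of the groups in the counts was not tested.

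Most members lay near the ratio threshold. The ratio of the MOZ mean to the highest other mean was 2.5 at the lowest, 3.14 at the median and 108 at the highest, with quartiles at 2.68 and 3.98. It was under 3 in 78 members, from 3 to under 5 in 73, from 5 to under 10 in 14, and at least 10 in 11. Against the single groups, the median member was 4.26-fold higher in MOZ than in TOL, 4.21-fold than in ASN, 3.68-fold than in CHW and 3.56-fold than in SEK. On the log2 scale these medians are 2.09, 2.07, 1.88 and 1.83, beside medians over all genes of at least 1 CPM in both groups of 0.16, 0.11, 0.08 and 0.02. The shift of all genes was thus in the same direction but small. Just inside the ratio threshold were AARA003506 (2.502) and AARA009573 (2.503), and just outside it AARA014196 (2.499) and AARA002140 (2.497). Just inside the threshold on the MOZ mean were AARA010735 (1.0 CPM) and AARA001165 (1.006 CPM), and just outside it AARA009426 (0.9906 CPM) and AARA002361 (0.9806 CPM).

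The members were mostly genes of low counts. CPM is not divided by transcript length, which the files do not give, so the following values rank counts and not molecules. The MOZ mean ran from 1.0 to 486 CPM with a median of 5.54 CPM and quartiles of 2.17 and 12.5 CPM. It was under 2 CPM in 36 members, from 2 to under 10 CPM in 84, from 10 to under 100 CPM in 47 and at least 100 CPM in 9. Those 9 held 59.4% of the members' summed MOZ CPM, at ratios of 2.54 to 4.26, while the 11 members with a ratio of at least 10 had MOZ means of 1.83 to 61.7 CPM. High level and high ratio thus fell on different members. In a MOZ library 1 CPM was between 9.87 and 17.6 reads, so that the members near 1 CPM rest on few reads per library.

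**Figure D2:**
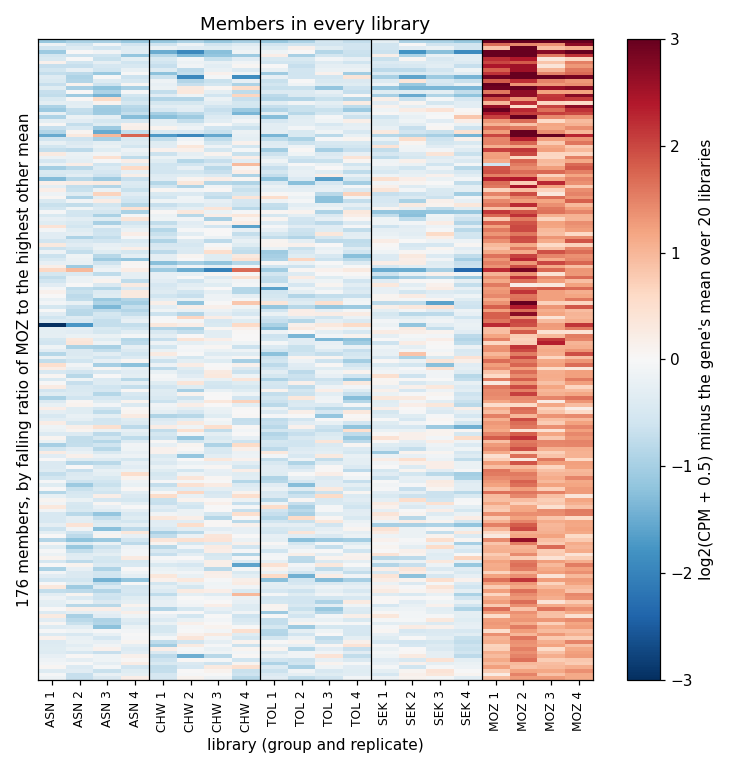
Each line is 1 of the 176 members and each column 1 of the 20 libraries, coloured by log2(CPM + 0.5) minus the gene's mean over all 20 libraries, with colours capped at the ends of the scale. The 4 MOZ columns are the high ones by selection.

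The member with the largest ratio was AARA007380, which was close to absent outside MOZ. MOZ replicates 1 to 4 held 210, 199, 157 and 166 counts, or 17.9, 20.2, 8.90 and 13.9 CPM (15.2 ± 4.94 CPM, SD, n = 4). The 16 other libraries held 18 counts in all, with 6, 1, 1 and 0 in SEK, 0, 1, 1 and 0 in ASN libraries, 0, 1, 0 and 1 in those of CHW, and 0, 1, 3 and 2 in those of TOL. All MOZ libraries were high, and no other library had more than 6 counts. Pooled over libraries, the level was 95.7-fold that of SEK (exact binomial 95% interval 48.3 to 223, counting error only), SEK being the group with the highest mean outside MOZ.

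The members with the fewest counts outside MOZ behaved less evenly. AARA014350 held 22, 15, 25 and 51 counts in MOZ replicates 1 to 4, or 1.87, 1.52, 1.42 and 4.28 CPM, and 11 counts in the other 16 libraries: 2, 0, 3 and 0 in the ASN libraries, 0, 2, 0 and 1 in those of CHW, 0, 3, 0 and 0 in SEK, and 0 in every TOL library. Pooled, this is 23.5-fold the level in ASN (exact binomial 95% interval 9.79 to 73.9, counting error only). AARA002505 held 10, 54, 16 and 13 counts in MOZ, or 0.852, 5.47, 0.907 and 1.09 CPM, and 17 counts elsewhere. Replicate 2 gave 65.8% of its summed MOZ CPM, and its ratio of 17.2 to the TOL mean was 7.86 without that library. No other library of either gene reached the lowest MOZ library.

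Among members with a ratio of at least 10, AARA002168 and AARA000317 were singled out after their values were seen, as those with the highest MOZ means. AARA002168 had 52.8, 81.8, 60.8 and 51.3 CPM in MOZ (61.7 ± 14 CPM, SD, n = 4), against 5.66 ± 2.07 CPM in TOL, 4.68 ± 1.40 CPM in ASN, 3.26 ± 2.35 CPM in CHW and 2.49 ± 0.570 CPM in SEK (SD, n = 4 each). AARA000317 had 37.3, 37.0, 20.6 and 41.2 CPM in MOZ (34.0 ± 9.13 CPM, SD, n = 4), against 2.06 ± 0.758 CPM in ASN, 1.99 ± 0.699 CPM in TOL, 1.07 ± 0.944 CPM in CHW and 0.794 ± 0.547 CPM in SEK (SD, n = 4 each). Both were high in every MOZ library and lowest on average in SEK, the other laboratory strain. The fitted MOZ minus SEK log2 fold change was 4.6 (SE 0.380) for AARA002168 and 5.35 (SE 0.452) for AARA000317. All 11 members with a ratio of at least 10 had every MOZ library above every other library, and 7 of them had a highest other mean under 0.5 CPM.

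The members with the highest MOZ means were AARA014113 and AARA010232, each at a ratio near the threshold. AARA014113 had 488, 697, 376 and 383 CPM in MOZ (486 ± 150 CPM, SD, n = 4), 182, 168, 224 and 172 CPM in SEK, and 172, 193, 154 and 177 CPM in CHW. Its ASN libraries had 102, 106, 58.0 and 68.4 CPM and its TOL libraries 65.7, 103, 63.1 and 78.1 CPM. The libraries outside MOZ thus fell in 2 levels that did not overlap, with SEK and CHW above ASN and TOL. AARA010232 had 388, 474, 391 and 510 CPM in MOZ (441 ± 60.7 CPM, SD, n = 4) against 173 ± 38.5 CPM in TOL, 161 ± 23.5 CPM in ASN, 144 ± 39.8 CPM in CHW and 121 ± 9.02 CPM in SEK (SD, n = 4 each). Both left the rule under some settings. The ratio of AARA014113, 2.61, was 2.23 without MOZ replicate 2 and 2.46 by medians. The ratio of AARA010232, 2.54, was 2.28 with TMM-scaled CPM, 2.32 by medians, 2.48 without MOZ replicate 2 and 2.41 without MOZ replicate 4. For AARA010232, groups next to each other in the order of TOL, ASN, CHW and SEK overlapped.

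**Figure D3:**
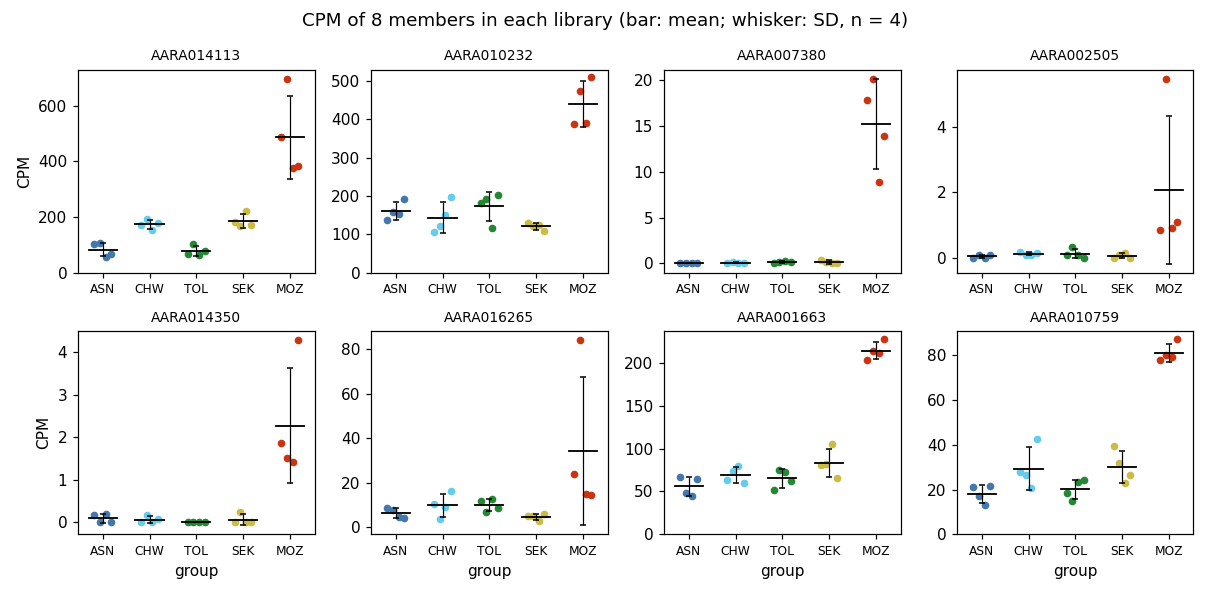
CPM of 8 named members in each library (points), with the group mean (bar) and SD (whisker, n = 4), on linear axes that start at or just below 0. The MOZ points stand above the other groups in all panels but that of AARA016265, where MOZ replicate 2 alone stands far up and CHW replicate 4, at 16.3 CPM, reaches the range of the other MOZ libraries.

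The members differed in how even the 4 MOZ libraries were. The evenest were AARA001663, with 204, 214, 212 and 228 CPM in MOZ (214 ± 10.1 CPM, SD, n = 4), and AARA010759, with 78.0, 80.2, 79.2 and 87.1 CPM (81.1 ± 4.11 CPM, SD, n = 4). In SEK, their next highest group, AARA001663 had 83.5 ± 16.2 CPM and AARA010759 had 30.1 ± 7.13 CPM (SD, n = 4 each). The least even beside AARA002505 was AARA016265, with 23.9, 84.0, 14.9 and 14.6 CPM in MOZ (34.3 ± 33.4 CPM, SD, n = 4) and 10.1 ± 2.76 CPM in TOL (SD, n = 4). Its ratio of 3.41 was 1.76 without MOZ replicate 2, so that library alone placed it among the members. The coefficient of variation over the 4 MOZ libraries had a median of 0.279 among members and 0.161 among the 10200 AARA genes of at least 1 CPM that are not members. With the comparison kept to genes of at least 10 CPM, the medians were 0.236 over 56 members and 0.138 over 7317 other genes. Nothing is read from these differences, because the rule selected on the mean of the same MOZ libraries and a single high library raises both that mean and the variation.

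MOZ replicate 2 weighed most in the set. It was the highest of the 4 MOZ libraries in 109 members (61.9%), against 26 in replicate 1, 26 in replicate 4 and 15 in replicate 3, and it was the highest in 40.2% of the other genes of at least 1 CPM. It was at least 2 times every other MOZ library in 9 members (5.11%) and in 64 other genes (0.627%). The median member stood 0.32 log2 units above its MOZ mean in replicate 2 and 0.25 below it in replicate 3, and the medians over all genes were 0.07 above and 0.10 below. The rule selected on the mean of these same libraries, which a single high library raises, so nothing is read from the differences to other genes. Replicate 2 also had the smallest library, with 9868619 AARA counts against 17643001 in replicate 3. The part of depth in this order was not tested. Without replicate 2 the rule took 138 genes, 123 of them among the 176.

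**Figure D4:**
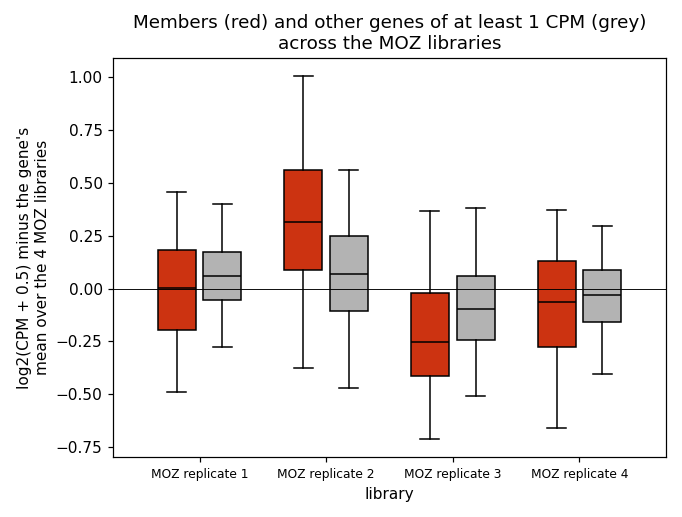
For each MOZ library, log2(CPM + 0.5) minus the gene's mean over the 4 MOZ libraries, for the 176 members (red) and for other genes of at least 1 CPM (grey). Boxes span the quartiles, lines mark medians and whiskers run from the 5th to the 95th percentile, and the members' box is shifted up in replicate 2 and down in replicate 3.

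Outside MOZ, the members differed in which group came next. The next highest group was SEK for 71 members (40.3%), CHW for 58 (33%), ASN for 25 (14.2%) and TOL for 22 (12.5%), and among other genes of at least 1 CPM it was SEK for 43.4%, TOL for 19.1%, ASN for 18.9% and CHW for 18.5%. CHW was the next highest group for a larger share of members than of other genes, and no test of that difference was made. SEK, the other susceptible strain, lay below all 3 field populations in 30 members. The median ratio of the highest to the lowest group mean outside MOZ was 1.64 among members and 1.39 among other genes.

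In comparisons without MOZ, the MOZ libraries take no part, but the rule is not fully apart from them, since it held the highest of the 4 other means under a limit set by the MOZ mean. The tests used edgeR's quasi-likelihood test on the 16 libraries outside MOZ, with Benjamini-Hochberg adjustment over 10839 genes, and a gene was called at an adjusted p under 0.05 and a fold of at least 2. Of the 176 members 118 passed the filter on low counts, and 20 of those (16.9%) were called in at least 1 of the 6 comparisons, beside 13.2% of all tested genes, while 98 were called in none. The 58 members that did not pass had highest other means of 0.0918 to 0.991 CPM and MOZ means of 1.0 to 15.2 CPM. The tested members had a median of 2.3 CPM over the 16 libraries, beside 20.6 CPM for all tested AARA genes, and calls at matched levels were not compared.

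Of the 3 field populations against SEK, ASN had 4 members called higher (3.39% of those tested, beside 4.87% of all genes) and 4 lower (3.39%, beside 2.55%). CHW had 4 higher (3.39%, beside 1.92%) and 1 lower (0.847%, beside 1.47%). TOL had 7 higher (5.93%, beside 5.85%) and 6 lower (5.08%, beside 2.12%). Each of these shares rests on at most 7 genes. ASN and TOL were sequenced wholly in the first run and SEK wholly in the second. With the run as a covariate, which CHW alone informs, the shares of all genes changed too. ASN then had 4 members higher than SEK (3.39%, beside 3.49% of all genes) and 1 lower (0.847%, beside 1.47%). TOL had 6 higher (5.08%, beside 5.04%) and 2 lower (1.69%, beside 2.18%), and CHW had 5 higher (4.24%, beside 1.64%) and 0 lower (0%, beside 0.793%). Scaling by library totals in place of TMM put the median of all genes at -0.34 for ASN minus SEK, -0.46 for TOL minus SEK and -0.15 for CHW minus SEK on the log2 scale. Unlike the CPM totals, these totals hold the mitochondrial counts, which were 12.1% (SEK replicate 3) to 36.3% (TOL replicate 1) of a library. Under it ASN had 2 members higher than SEK (1.69%, beside 3.02% of all genes) and 13 lower (11%, beside 6.21%). TOL had 1 higher (0.847%, beside 3.11%) and 14 lower (11.9%, beside 9.01%), and CHW had 4 higher (3.39%, beside 1.44%) and 3 lower (2.54%, beside 2.07%).

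Between field populations, ASN had 1 member higher than CHW (0.847%, beside 2.88% of all genes) and 5 lower (4.24%, beside 0.812%). CHW had 3 higher than TOL (2.54%, beside 0.803%) and 1 lower (0.847%, beside 2.66%). ASN had 0 members higher than TOL (0%, beside 1.13%) and 1 lower (0.847%, beside 0.286%). With the run as a covariate, ASN had 1 member higher than CHW (0.847%, beside 2.81%) and 3 lower (2.54%, beside 0.867%). CHW then had 2 higher than TOL (1.69%, beside 1.02%) and 1 lower (0.847%, beside 2.77%). By unadjusted p under 0.05, 7 members differed between ASN and TOL (5.93%, beside 20.8% of all genes). DESeq2 called 1 of the 97 members that it tested between them (1.03%, beside 1.83% of all genes). Without CHW replicate 1, 2 or 3, ASN had 0 members higher than CHW (0%, beside 2.32%, 2.38% and 2.93% of all genes). ASN then had 7, 2 and 4 lower than CHW (5.47%, 1.57% and 3.12%, beside 0.711%, 0.684% and 0.692%). Without CHW replicate 4, ASN had 4 higher (3.17%, beside 3.18% of all genes) and 5 lower (3.97%, beside 1.01%). For CHW against TOL, more members were called higher than lower without CHW replicate 1 or 2, but not without replicate 3 or 4. Without CHW replicate 4, CHW had 3 higher than TOL (2.38%, beside 1.11%) and 4 lower (3.17%, beside 2.8%). Without CHW replicate 3, CHW had 2 higher (1.56%, beside 0.665%) and 2 lower (1.56%, beside 2.95%). With library totals, mitochondrial counts included, in place of TMM, CHW against TOL had 8 members higher (6.78%, beside 2.07% of all genes) and 0 lower (0%, beside 1.77%). The median log2 fold change of the tested members was -0.11 for ASN minus SEK, 0.08 for CHW minus SEK, -0.05 for TOL minus SEK, -0.21 for ASN minus CHW, 0.10 for CHW minus TOL and -0.05 for ASN minus TOL. The medians of all tested genes lay between -0.03 and 0.01.

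**Figure D5:**
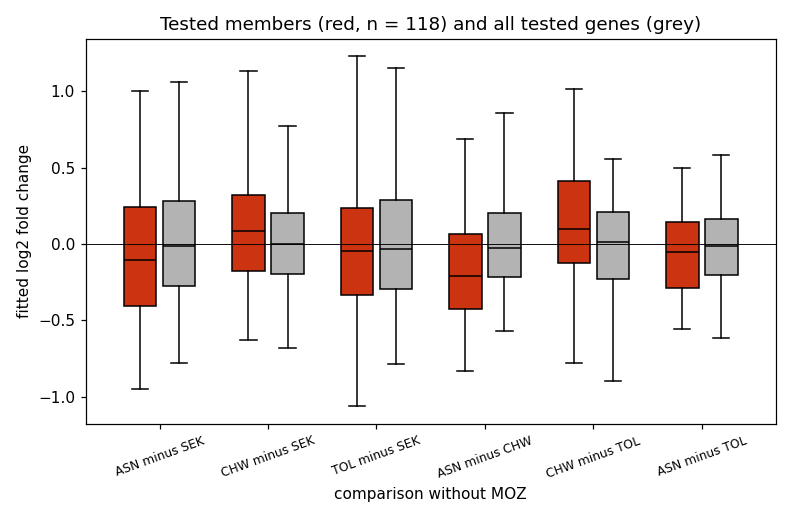
Log2 fold changes in the 6 comparisons without MOZ, for the 118 tested members (red) and all tested genes (grey). Boxes span the quartiles, lines mark medians and whiskers run from the 5th to the 95th percentile, and the members' median is farthest from 0 for ASN minus CHW, at -0.21.

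AARA014113, the member with the highest MOZ mean, had the smallest adjusted p in 3 of these comparisons. It fell by 1.04 on the log2 scale in ASN against SEK (SE 0.203, edgeR quasi-likelihood test, Benjamini-Hochberg adjusted p = 0.00192) and by 1.12 in TOL against SEK (SE 0.203, adjusted p = 0.000816). It was higher in CHW than in TOL by 1.11 (SE 0.203, edgeR quasi-likelihood test, adjusted p = 0.00363). In each case the lower group had all 4 libraries below all 4 of the higher group. CHW and SEK did not differ beyond their spread for this gene, with a log2 fold change of -0.01 (SE 0.200).

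AARA004228 was likewise higher in every CHW and SEK library than in every ASN and TOL library. It had 10.2, 11.1, 10.6 and 6.88 CPM in CHW and 4.01, 3.09, 3.33 and 5.03 CPM in ASN, a log2 fold change of -1.33 for ASN minus CHW (SE 0.237, edgeR quasi-likelihood test, adjusted p = 0.00193). Its MOZ libraries had 22.0, 51.8, 15.2 and 13.8 CPM, all above the highest other library. AARA004520 had 10.4, 31.3, 64.4 and 64.2 CPM in ASN, 54.2, 117, 131 and 159 CPM in TOL, and 497, 405, 258 and 469 CPM in MOZ. ASN and TOL overlapped, with a log2 fold change of -1.49 for ASN minus TOL (SE 0.406, edgeR quasi-likelihood test, adjusted p = 0.0414). This call was lost without ASN replicate 1 or 2, CHW replicate 1 or 2, SEK replicate 3 or 4, or TOL replicate 2, 3 or 4, each left out alone.

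AARA014233 and AARA001020 were lowest in SEK. AARA014233 had 1.08, 1.10, 1.14 and 0.871 CPM in SEK, 2.09, 3.68, 1.93 and 2.04 CPM in ASN, 2.03, 4.06, 2.71 and 2.93 CPM in CHW, and 8.43, 10.54, 5.78 and 6.46 CPM in MOZ. It was higher than SEK by a log2 fold change of 1.32 in ASN (SE 0.280, edgeR quasi-likelihood test, adjusted p = 0.00325) and of 1.55 in CHW (SE 0.277, adjusted p = 0.0023). AARA001020 had 1.08, 1.02, 1.07 and 1.09 CPM in SEK, 3.20, 3.29, 1.34 and 3.86 CPM in TOL, and 14.7, 12.6, 10.4 and 9.22 CPM in MOZ, and a log2 fold change of 1.59 for TOL minus SEK (SE 0.318, edgeR quasi-likelihood test, adjusted p = 0.00166). For both genes the 2 susceptible strains were the extremes, MOZ the highest and SEK the lowest, with the field populations between.

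CHW was the lowest group for AARA004231 and AARA014826. AARA004231 had 10.4, 12.4, 10.9 and 13.8 CPM in CHW, 26.4, 22.2, 25.1 and 18.9 CPM in TOL, and 74.0, 63.1, 104 and 86.3 CPM in MOZ, and a log2 fold change of -1.03 for CHW minus TOL (SE 0.212, edgeR quasi-likelihood test, adjusted p = 0.00602). AARA014826 had 0.243, 0.338, 0.465 and 0.0681 CPM in CHW, 1.01, 0.846, 0.914 and 1.09 CPM in SEK, and 7.67, 5.78, 5.67 and 5.28 CPM in MOZ, and a log2 fold change of -1.70 for CHW minus SEK (SE 0.462, edgeR quasi-likelihood test, adjusted p = 0.0267). CHW did not overlap the other group in either case. AARA015021 had 0.167, 1.84, 3.20 and 5.82 CPM in ASN and 0.0811, 0, 0.155 and 1.09 CPM in CHW, a log2 fold change of 2.91 for ASN minus CHW (SE 0.803, edgeR quasi-likelihood test, adjusted p = 0.0238). The ASN libraries of this gene were spread over a wide range and overlapped CHW, and its MOZ libraries had 7.16, 20.9, 16.3 and 8.72 CPM.

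MOZ was sequenced in the second run only, so MOZ against ASN or TOL cannot be told apart from the run, and CHW is the group that both runs hold. Within CHW, the libraries of the second run against those of the first gave 0 calls among 138 members and 0% of 11161 genes by edgeR's quasi-likelihood test. At an unadjusted p under 0.05 there were 10 members (7.25%, beside 5.59% of all genes), and DESeq2 called 0 members and 6 genes in all. When the rule used second-run libraries alone, which leaves SEK and CHW replicates 3 and 4 beside MOZ, it took 223 genes, 163 of them among the 176. Leaving out ASN and TOL can only add genes, so members could drop out only through the mean of the remaining CHW libraries. The overlap is therefore no test of the run.

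Members often had neighbouring ID numbers, a pattern looked at after the data were seen. Of the 168 members whose next ID number was in the table, 21 (12.5%) were followed by another member, where 1.27% of all AARA IDs are members. In all, 39 members adjoined another, in 15 pairs and 3 runs of 3: AARA001091 to AARA001093, AARA010461 to AARA010463 and AARA014825 to AARA014827. The genes that the same rule took for SEK were neighbours too, in 24 of 104 cases (23.1%), where 0.766% of AARA IDs were taken. The files do not say what the numbering follows, and whether reads of near-identical genes were split between neighbours was not tested.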

How the data were processed

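The authors deposited raw counts of reads per gene, as the values show: they are whole numbers, and library sums differ. Per the submitters' processing notes, FastQC 0.11.4, HISAT2, Cufflinks, SAMtools 1.5 and HTSeq 0.9.0 were used. Build, annotation and strand setting are not stated in the sources at hand, so near-identical or overlapping genes are uncertain. Total counts ran from 12205530 (MOZ replicate 2) to 21516390 (ASN replicate 3).

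The members and lists were chosen with earlier results of these data known. Group means of CPM gave the members. Tests used edgeR 4.0.16 in R 4.3.3: filterByExpr by group, TMM and a quasi-likelihood fit of the 16 libraries outside MOZ, with no covariate and a common biological coefficient of variation of 0.187. A fit of all 20 gave the MOZ fold changes and their SE. The fits were tested on simulated data. Named were at most 2 members each for the highest MOZ mean, largest ratio, fewest counts elsewhere, largest and smallest variation over MOZ and the sides of both thresholds, and in each comparison the called member of smallest adjusted p per direction. Alternatives changed the rule, scaling, filter, test, run and libraries. DESeq2 1.42.0 was the second test. Gene family lists were not used, since no ID matched a name.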

Additional observations from a re-analysis of the deposited data

Results flagged for a closer look

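For the named members and the members' summed share, the 5 groups of 4 libraries each were examined for a library far from the other 3, by Dixon's ratio of the gap to the range at its 95% critical value. Of 100 groups 9 were picked out. Chance picks out about 1 in 20 groups, but AARA002505 and AARA016265 were named for their variation over MOZ and AARA014350 for its low counts elsewhere, so the number is not to be read against that share.

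In MOZ, AARA002505 stood at 5.47 CPM in replicate 2 against 0.852 to 1.09 CPM in the others, and AARA016265 at 84.0 CPM in replicate 2 against 14.6 to 23.9 CPM. AARA014350 stood at 4.28 CPM in MOZ replicate 4 against 1.42 to 1.87 CPM.

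Outside MOZ, AARA014350 had 0.254 CPM in SEK replicate 2 and 0 in the other SEK libraries. AARA010735 had 0.501 CPM in ASN replicate 1 against 0.147 to 0.200 CPM, and 0 CPM in TOL replicate 4 against 0.336 to 0.402 CPM. AARA015021 had 1.09 CPM in CHW replicate 4 against 0 to 0.155 CPM. AARA014233 had 3.68 CPM in ASN replicate 2 against 1.93 to 2.09 CPM, and AARA004520 had 46.0 CPM in SEK replicate 2 against 85.2 to 93.1 CPM. The 4 values at or under 1.09 CPM outside MOZ rest on few counts.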

How the results depend on the processing

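The rule took 176 genes as given, 398 at a ratio of at least 2, 44 at a ratio of at least 4, 91 at a MOZ mean of at least 5 CPM and 399 with no minimum mean. It took 124 with TMM-scaled CPM, 123 with DESeq2 size factors, 202 with all counts in the denominator, 155 by medians, and 138 (without MOZ replicate 2) to 208 with 1 library left out, and 96 members stayed whichever library was left out. The fit of all 20 tests 167 members in place of 118, the added ones passing its filter with MOZ, where they are high. The following shares are of the members tested under each setting, beside those of all genes. Members called between ASN and SEK numbered 8 as given (6.78%, beside 7.42%). They numbered 15 in a fit of all 20 libraries (8.98%, beside 7.62%) and 15 with library totals (12.7%, beside 9.23%). With a run covariate there were 5 (4.24%, beside 4.95%). With 1 library left out there were 6 (without SEK replicate 3, 4.8%, beside 6.99%) to 14 (without ASN replicate 1, 10.9%, beside 6.91%). Between TOL and SEK there were 13 (11%, beside 7.97%), then 8 with the run (6.78%, beside 7.21%). With 1 library left out there were 8 (without TOL replicate 1, 6.3%, beside 7.97%) to 14. The 14 came without ASN replicate 4 (11%, beside 8.14%) or CHW replicate 4 (11.1%, beside 8.19%). Between CHW and SEK there were 5 (4.24%, beside 3.39%), then 8 in the fit of all 20 (4.79%, beside 3.66%). By DESeq2 there were 8 (6.78%, beside 3.99%). Between ASN and CHW there were 6 (5.08%, beside 3.69%). With 1 library left out there were 2 (without CHW replicate 2, 1.57%, beside 3.06%) to 9 (without CHW replicate 4, 7.14%, beside 4.19%). Without ASN replicate 3 there were 3 (2.33%, beside 2.8%). Between CHW and TOL there were 4 (3.39%, beside 3.46%), then 8 with totals (6.78%, beside 3.84%). With 1 library left out there were 2 (without TOL replicate 3, 1.55%, beside 3.01%) to 7 (without CHW replicate 4, 5.56%, beside 3.92%). Between ASN and TOL there was 1 (0.847%, beside 1.41%), then 0 with totals (0%, beside 1.61%). With 1 library left out there were 0 to 1 (0% to 0.806%, beside 0.738% to 2.51%). The causes were not tested. The labels give no pairing by replicate number, and the values do not settle it. Correlations of same-numbered deviations from the group means ran from -0.20 to 0.55, with 7 of 24 over 0.1. Differently numbered pairs had a median of -0.00, and for 8 of the 16 libraries the best match had the same number. With a replicate block 8 members were called between ASN and SEK (6.78%, beside 7.49% of all genes). There were then 6 between CHW and SEK (5.08%, beside 3.73%) and 5 between CHW and TOL (4.24%, beside 3.64%). Of 84 recomputed ratios of 12 named members, 15 in 5 members fell under the rule's 2.5, the lowest at 1.76. Members near 1 CPM are limited by depth.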
